A study of Mus musculus with 32 samples.

Results

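The genes described are 9 genes of insulin-like growth factor (IGF) signaling, *Igf1*, *Igf2*, *Igf1r*, *Igf2r*, *Insr*, *Irs1*, *Irs2*, *Igfbp4* and *Igfbp7*, chosen by name. Of these, 8 have a row in both gene tables, which list 26560 genes for Lin− cells and 25887 genes for CD11b+ cells. *Igf2* was not analysed here. IGF2BP3 eCLIP peaks were assigned to a gene through the Ensembl gene ID in the name of each peak.

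The study asked how the RNA-binding protein IGF2BP3 acts in leukemia driven by MLL-Af4, in mice on the C57BL/6 background. Lin− cells were bone marrow cells depleted of mature lineages, transduced with the MSCV-MLL-flag-Af4 retrovirus, selected with G418 and cultured with cytokines. CD11b+ cells were isolated on magnetic columns from splenic tumors of leukemic mice that had received MLL-Af4 transduced marrow. RNA-seq covered each cell type with 3 libraries of WT/MLL-Af4 and 3 of I3KO/MLL-Af4, where I3KO is a germline deletion of exon 2 of *Igf2bp3* that arose from leaky Vav1-Cre activity. IGF2BP3 eCLIP with the MBL RN009P antibody covered 6 Lin− libraries (3 biological, 3 technical) and 4 CD11b+ libraries (2 biological, 2 technical) of WT/MLL-Af4 cells, each with a size-matched input (smInput). All cells compared carry MLL-Af4, and the labels list no other treatment. The protocol takes CD11b+ cells from spleen, but every eCLIP library, CD11b+ or Lin−, has a name starting with "bm", and the tissue of the CD11b+ ones remains unclear.

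IGF1 and IGF2 are secreted ligands that activate IGF1R, a receptor tyrosine kinase closely related to the insulin receptor, and the activated receptors recruit IRS adaptor proteins that pass the signal to PI3K and RAS. IGF2R carries lysosomal enzymes and removes IGF2 from the cell surface, and IGF binding proteins hold the ligands outside the cell. IGF2BP3 belongs to a family of RNA-binding proteins named after the binding of the leader of *Igf2* mRNA, and such proteins can alter the stability, location and translation of their target RNAs.

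The eCLIP libraries held between 4040 and 10042 filtered peaks in Lin− cells (median 6927.5) and between 7085 and 10054 in CD11b+ cells (median 8053.5). The last field of each peak name, which has no column header, was read as the number of reads CLIPper found in the peak. It was at least 3 in every library, with library medians between 5 and 8. Sequencing depth per library is unknown, so the lack of a peak does not prove a lack of binding. The smInput libraries held fewer peaks, between 217 and 1808 in Lin− cells and between 1381 and 1885 in CD11b+ cells. The lack of an smInput peak on a gene therefore says little. The RNA level of a gene is given as the authors' mean normalized count over the libraries of both genotypes together, divided by the joined length of its exons (kb). These means have no spread between libraries, and the tables of the cell types were normalized separately.

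Cell type markers were checked in the same tables, with means compared as given. Over the 17879 genes with a mean of at least 10 in either table, the median Lin− over CD11b+ ratio was 1.68. A marker somewhat lower in the CD11b+ table therefore need not be low relative to other genes there. The 7 progenitor genes summed to 57267 normalized counts in the Lin− table and 43094 in the CD11b+ table, led by *Myb* in both (22675 and 37516). The other 6 were higher in the Lin− table, with *Kit*, *Cd34* and *Flt3* at 6974, 9052 and 9396 there and at 673, 1291 and 390 in CD11b+ cells. The 7 neutrophil genes summed to 124826 and 236486, led by *Mpo* in both, although *Mpo* itself was lower in the CD11b+ table (101212 and 84102). The myeloid genes summed to 52286 over 7 genes in the Lin− table and 119040 over 8 in the CD11b+ table, led by *Lyz2* in both (20990 and 72146), whereas *Ptprc* was lower in the CD11b+ table (11349 and 7297). *Itgam*, which encodes CD11b itself, had a mean of only 17.0 in the CD11b+ table and was not analysed here in Lin− cells. In the annotation, 68.7% of the exon bases of *Itgam* are shared with *Gm49368*, a gene on the same strand, with a mean of 77.2 in the CD11b+ table. Whether reads of *Itgam* were lost through this overlap was not tested. The eCLIP libraries held 6, 8, 4 and 5 filtered *Itgam* peaks in CD11b+ replicates 1 to 4. In Lin− cells, replicates 2 and 3 held 1 each and the others 0. None of the 8 IGF pathway genes measured shares bases with another annotated gene on its strand. Markers of other cells were also seen. The 5 erythroid genes summed to 282 normalized counts in Lin− cells and 4523 in CD11b+ cells, led there by *Hba-a1* at 1268. The 4 B cell genes summed to 405 and 747, led by *Cd79b* in both tables, and no T cell gene measured reached 10 in either. Of 8 genes of stroma and endothelium, 8 reached 10 in the Lin− table and 3 in the CD11b+ table, and *Pecam1* made up most of both sums (7064 of 7438 and 3852 of 4069). Platelet genes summed to 2666 in Lin− cells and 65.7 in CD11b+ cells. The macrophage genes summed to 2636 over 6 genes in the Lin− table, led by *Adgre1*, and to 11986 over 7 in the CD11b+ table, led by *Cd163*. Of the 6 in both, *Mrc1* and *C1qb* were lower in the CD11b+ table and the other 4 higher. The part of any of these cells in the levels below was not tested.

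IGF2BP3 peaks were found on 3 of the 8 genes, *Igfbp4*, *Insr* and *Igf1r*, and each carried at least 1 in Lin− and in CD11b+ cells. With peaks required in at least 2 biological libraries, *Insr* and *Igfbp4* remained in Lin− cells and only *Insr* in CD11b+ cells. The share of all genes that met this requirement was 13.7% in Lin− and 10.2% in CD11b+ cells, and among genes with a mean of at least 1000 it was 46.9% and 37.9%. The 3 genes with a peak were also those with the highest RNA level per kb in both tables. Of all genes in the tables, 26.5% in Lin− and 25.6% in CD11b+ cells had at least 1 filtered peak in any library, and this share climbed with the mean. In Lin− cells it was 4.22% for genes with a mean under 10, 7.02% from 10 to 100, 25.2% from 100 to 1000 and 76.5% from 1000 upward. In CD11b+ cells, the corresponding shares were 6.53%, 9.66%, 35.0% and 68.4%. *Igfbp4*, *Insr* and *Igf1r* were the members with a mean of at least 1000 in both cell types, and the other 5 lay below it. Having a peak does not set these 3 apart from most genes at their level. Over all libraries, *Insr* carried 17 filtered peaks, *Igfbp4* 16 and *Igf1r* 4. The smInput filter only removes peaks, so each of these was there before it by construction. On these 3 genes the filter, which rests on the shorter smInput peak lists, took none away.

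**Figure D1:**
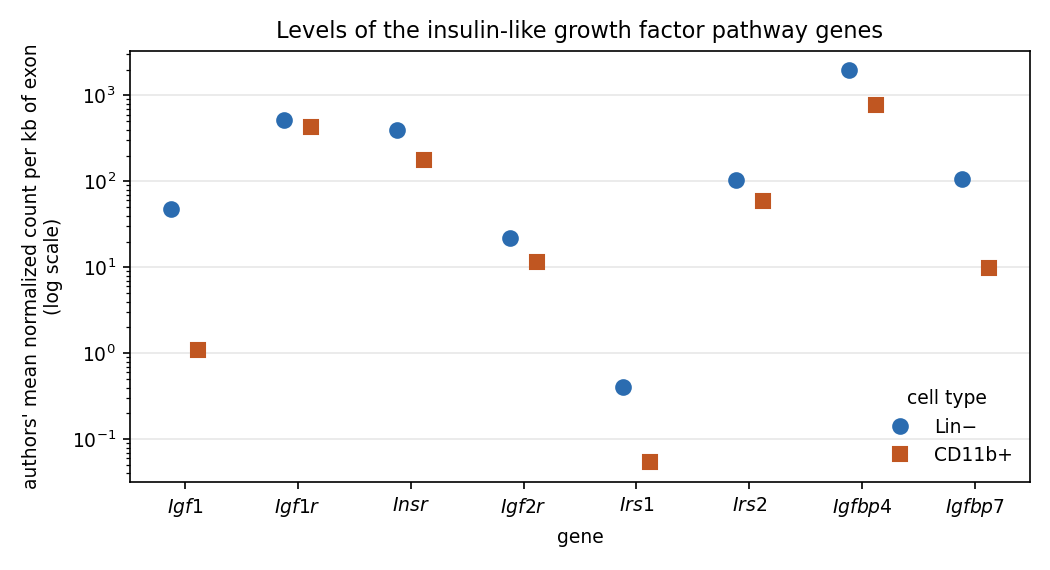
Authors' mean normalized count per kb of exon (log scale) of the 8 genes in Lin− cells (circles) and CD11b+ cells (squares), 1 mean per gene and table without error, with the tables normalized separately. *Igfbp4* lies highest in both tables at 1960 and 773, and *Irs1* lowest at 0.404 and 0.0541.

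*Igf1*, which encodes the IGF1 ligand (ENSMUSG00000020053, chr10:87858265-87937042, plus strand, mm10), had a mean of 472 normalized counts or 47.7 per kb in Lin− cells. In CD11b+ cells the mean was 10.7, or 1.08 per kb. Fewer cells that make a transcript and less RNA per cell cannot be told apart in bulk RNA. The Lin− over CD11b+ ratio of the means was 44.0, at percentile 97.4 among the 17879 genes with a mean of at least 10 in either table, whose median ratio was 1.68. *Igf1* thus stood far toward the Lin− side, without a test since neither table gives values per library. No eCLIP or smInput library had a peak on *Igf1*, in a Lin− class of mean where 25.2% of genes have one.

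Among the receptors, *Igf1r* and *Insr* had the highest levels. *Igf1r*, the receptor of IGF1 (ENSMUSG00000005533, chr7:67952827-68233668, plus strand), had 519 normalized counts per kb in Lin− cells and 432 in CD11b+ cells, at percentiles 71.8 and 74.9 of genes with a mean of at least 10. *Insr*, the insulin receptor (ENSMUSG00000005534, chr8:3122061-3279617, minus strand), had 397 and 177 per kb, at percentiles 65.0 and 54.3. The spread of these means is unknown, so their order within a table is a description. The Lin− over CD11b+ ratio was 1.20 for *Igf1r*, at percentile 35.6 of all ratios, and 2.25 for *Insr*, at percentile 64.9.

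*Insr* had the most peaks of the list in CD11b+ cells, 13 against 5 on *Igfbp4*, and *Igfbp4* the most in Lin− cells, 11 against 4. The order of their totals is not stable. Without CD11b+ replicate 2 they were 11 for *Insr* and 16 for *Igfbp4*, without replicate 4 they were 13 and 14, and without replicate 3 both were 15. The biological CD11b+ replicates 1 and 2 held 1 and 6 filtered *Insr* peaks, and the technical replicates 3 and 4 held 2 and 4. In Lin− cells, biological replicates 1 to 3 held 1, 0 and 1, and technical replicates 4 to 6 held 0, 1 and 1. CD11b+ replicate 2 stood highest, and the ranges of the cell types overlapped. Per 1000 filtered peaks of a library, the biological replicates gave 0.0837 ± 0.0732 (SD, n = 3) in Lin− cells and 0.357 ± 0.339 (SD, n = 2) in CD11b+ cells. The difference, Lin− minus CD11b+, was -0.273 (two-sided exact permutation test, p = 0.2, Benjamini–Hochberg adjusted p = 0.780 over 9290 genes). Replicates of 3 against 2 allow 10 splits and no p below 0.1, so none of the 9290 genes could pass, and 0 had an adjusted or unadjusted p below 0.05. Without CD11b+ replicate 2 the difference was -0.0337, and with only peaks of a CLIPper p below 0.001 it changed sign, to 0.00933.

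Merged over libraries and cell types, the *Insr* peaks formed 10 regions, 3 seen in Lin− cells, 8 in CD11b+ cells and 1 in both. Exon and intron numbers are those of the transcript Insr-201, which has 21 exons. Of these regions, 2 had peaks in 3 libraries and none in more. One lies in the 3′ UTR at chr8:3154523-3154595, 1077 nt past the end of the coding sequence. It had a peak in CD11b+ replicates 1, 3 and 4, with CLIPper read numbers of 5, 18 and 6, and in no Lin− library. The other 7 CD11b+ regions lie in introns, 4 of them in intron 2, which is 46682 nt long. The other region with 3 libraries, the one shared by the cell types, lies in intron 4. It spans chr8:3203077-3203148 in CD11b+ replicate 2 and chr8:3203082-3203160 in Lin− replicates 3 and 6, and its near edge is 43 nt upstream of exon 5. The remaining Lin− regions flank exon 8 on both sides. A peak of Lin− replicate 1 at chr8:3192803-3192856 (6 reads) lies in intron 7 and ends at the base next to exon 8. A peak of Lin− replicate 5 at chr8:3192517-3192546 (3 reads) covers the last base of exon 8 and the start of intron 8. Each was found in 1 library, in sequence that is not masked as repeat. No *Insr* peak was found in any smInput library, and these held only 217 to 1885 peaks each.

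**Figure D2:**
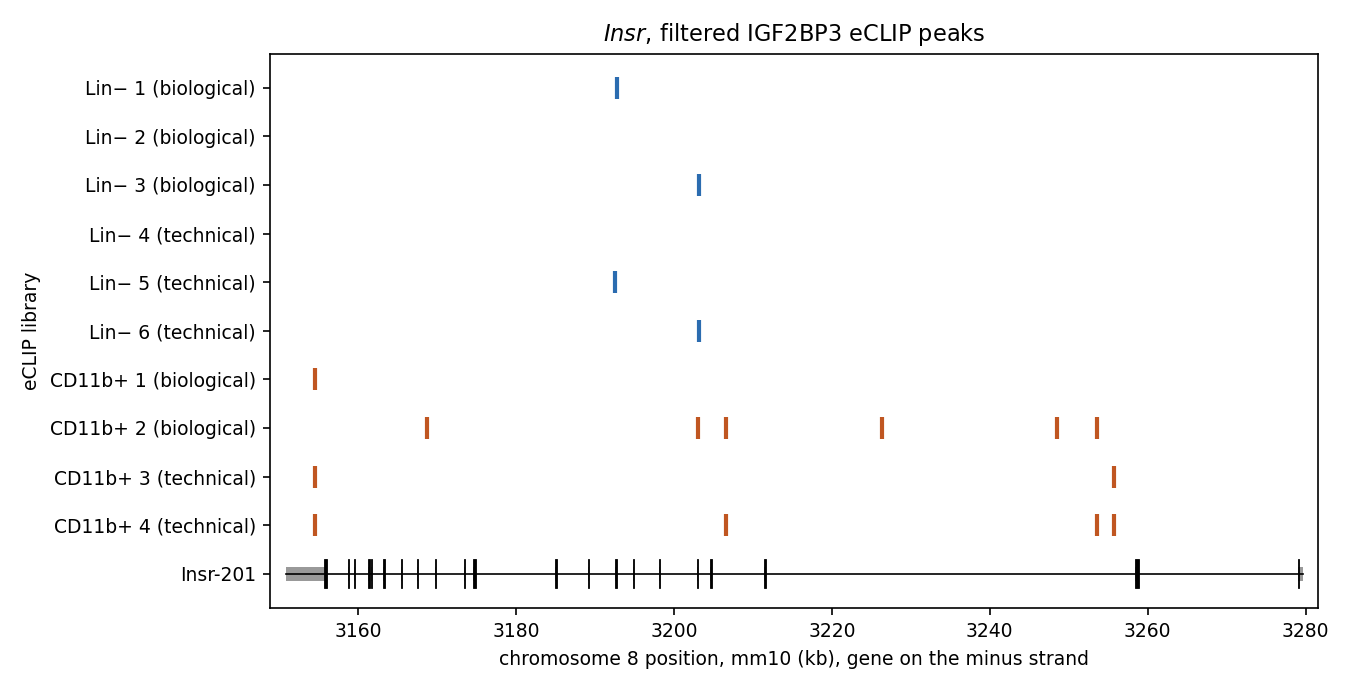
Filtered IGF2BP3 eCLIP peaks on *Insr* along chromosome 8 (mm10, kb) in 6 Lin− and 4 CD11b+ libraries, 1 line per library, with each tick at the center of a peak. Black boxes are coding exons and gray boxes untranslated exons of Insr-201, which runs from right to left, and 6 of the 17 ticks belong to CD11b+ replicate 2.

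On *Igf1r*, the biological CD11b+ replicates 1 and 2 held 0 and 2 filtered peaks and the technical replicates 3 and 4 held 0 and 1. In Lin− cells, replicate 3 held 1 peak and the other 5 libraries 0. The difference between the biological replicates was -0.0611 peaks per 1000 (two-sided exact permutation p = 0.7, Benjamini–Hochberg adjusted p = 1.0), and it changed sign, to 0.0384, without CD11b+ replicate 2. All 3 merged regions are intronic. The strongest, in intron 2 at chr7:68045562-68045614, had 25 and 20 reads in CD11b+ replicates 2 and 4. At the same place, the smInput libraries of CD11b+ replicates 1 and 3 had peaks with 6 and 5 reads. Their own eCLIP libraries had none there, even before the filter. A further intronic place, chr7:68208458-68208518 in the smInput of replicate 1, had smInput peaks in replicates 1 and 3 (4 and 3 reads) and no eCLIP peak. The Lin− peak at chr7:68174294-68174345 lies in intron 5, with 4 reads. The remaining CD11b+ peak, at chr7:67976900-67976907 in intron 1, is 8 nt long.

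*Igf2r*, which encodes the mannose 6-phosphate receptor that clears IGF2 (ENSMUSG00000023830, chr17:12682406-12769664, minus strand), was much lower, at 22.1 normalized counts per kb in Lin− cells and 11.6 in CD11b+ cells. These levels correspond to percentiles 15.6 and 9.90 of genes with a mean of at least 10, and to 46.5 and 41.8 of all genes in the tables. *Airn*, the noncoding RNA that starts inside *Igf2r* and runs on the opposite strand, overlaps it over 28354 bases. *Airn* had 1092 per kb in Lin− cells and 11.1 in CD11b+ cells. Reads were sequenced with their strand kept. No library had a filtered peak on *Igf2r* or *Airn*. The means of *Igf2r*, 197 in Lin− and 104 in CD11b+ cells, lie in classes where 25.2% and 35.0% of genes have one. Those of *Airn*, 3010 and 30.5, lie in classes where 76.5% and 9.66% do. A single smInput peak on *Igf2r*, with 4 reads, came from CD11b+ replicate 1.

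The adaptors differed widely from each other. *Irs2* (ENSMUSG00000038894, chr8:10984681-11008458, minus strand) had 104 normalized counts per kb in Lin− cells and 59.0 in CD11b+ cells. *Irs1* (ENSMUSG00000055980, chr1:82233101-82291416, minus strand) had 0.404 and 0.0541 per kb, and its means, 3.69 and 0.495, were the only ones of the list under 10 in either table. The ratio of the *Irs2* means, 1.77, was near the median of all genes. Neither adaptor had an eCLIP peak in any library, and 1 smInput peak (Lin− replicate 1, 4 reads) fell on *Irs1*.

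*Igfbp4*, which encodes a secreted IGF binding protein (ENSMUSG00000017493, chr11:99041244-99054392, plus strand), was the most abundant gene of the list per length. It had 1960 normalized counts per kb in Lin− cells (percentile 94.0) and 773 in CD11b+ cells (percentile 85.1). All 6 Lin− libraries had peaks on it, with 2, 3 and 2 in biological replicates 1 to 3 and 1, 2 and 1 in technical replicates 4 to 6. In CD11b+ cells, biological replicates 1 and 2 held 2 and 0, and technical replicates 3 and 4 held 1 and 2. The values overlapped between cell types. Per 1000 filtered peaks, the biological replicates gave 0.267 ± 0.0345 (SD, n = 3) in Lin− cells and 0.117 ± 0.166 (SD, n = 2) in CD11b+ cells, a difference of 0.150 (two-sided exact permutation p = 0.2, Benjamini–Hochberg adjusted p = 0.780). Without CD11b+ replicate 2 the difference was 0.0322, and without CD11b+ replicate 1 it was 0.267. Over all 9290 genes with a peak in a biological library, all Lin− values lay above both CD11b+ values for 9.34% and below both for 10.6%. *Igfbp4*, *Insr* and *Igf1r* were in neither class.

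The peaks on *Igfbp4* fell into 4 places. In every Lin− library, peaks lay in the 5′ UTR of exon 1, within chr11:99041286-99041505, a region that reaches past the start codon at position 99041497. The number of such peaks was 2, 3, 1, 1, 2 and 1 in Lin− replicates 1 to 6, and the strongest peak held 5, 23, 11, 8, 23 and 4 reads in that order. The bases from 99041339 to 99041386 were covered in all 6 Lin− libraries. Among the CD11b+ libraries, only replicate 1 had a peak there, with 7 reads, and it overlapped 42 of those 48 bases. Of 6326 Lin− genes with a mean of at least 1000, 11.2% had a region in a 5′ UTR and 0.411%, or 26 genes, had one with a peak in each of the 6 libraries. The share with a 5′ UTR region was 3.68% of the 4487 such CD11b+ genes. The class of 26 genes matches what was seen on *Igfbp4*, and 3 of the 6 Lin− libraries are technical. Its small share is therefore a description and no measure of how unusual *Igfbp4* is. None of the 6 smInput libraries of Lin− cells, with 217 to 1808 peaks each, had a peak on *Igfbp4*. The technical CD11b+ replicates 3 and 4 instead had peaks in intron 1, at chr11:99042186-99042262 in both and at chr11:99042406-99042455 in replicate 4. Over all annotated transcripts rather than the basic set, both places count as exon of a transcript outside that set, and as neither coding nor UTR. The smInput of CD11b+ replicate 4 also had a peak in intron 1, at chr11:99042896-99042898 with 4 reads, outside both places. A region in the 3′ UTR had a peak in CD11b+ replicate 1 (chr11:99051696-99051779, 9 reads) and in Lin− replicate 3 (chr11:99051693-99051761, 5 reads), 120 and 117 nt past the end of the coding sequence.

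**Figure D3:**
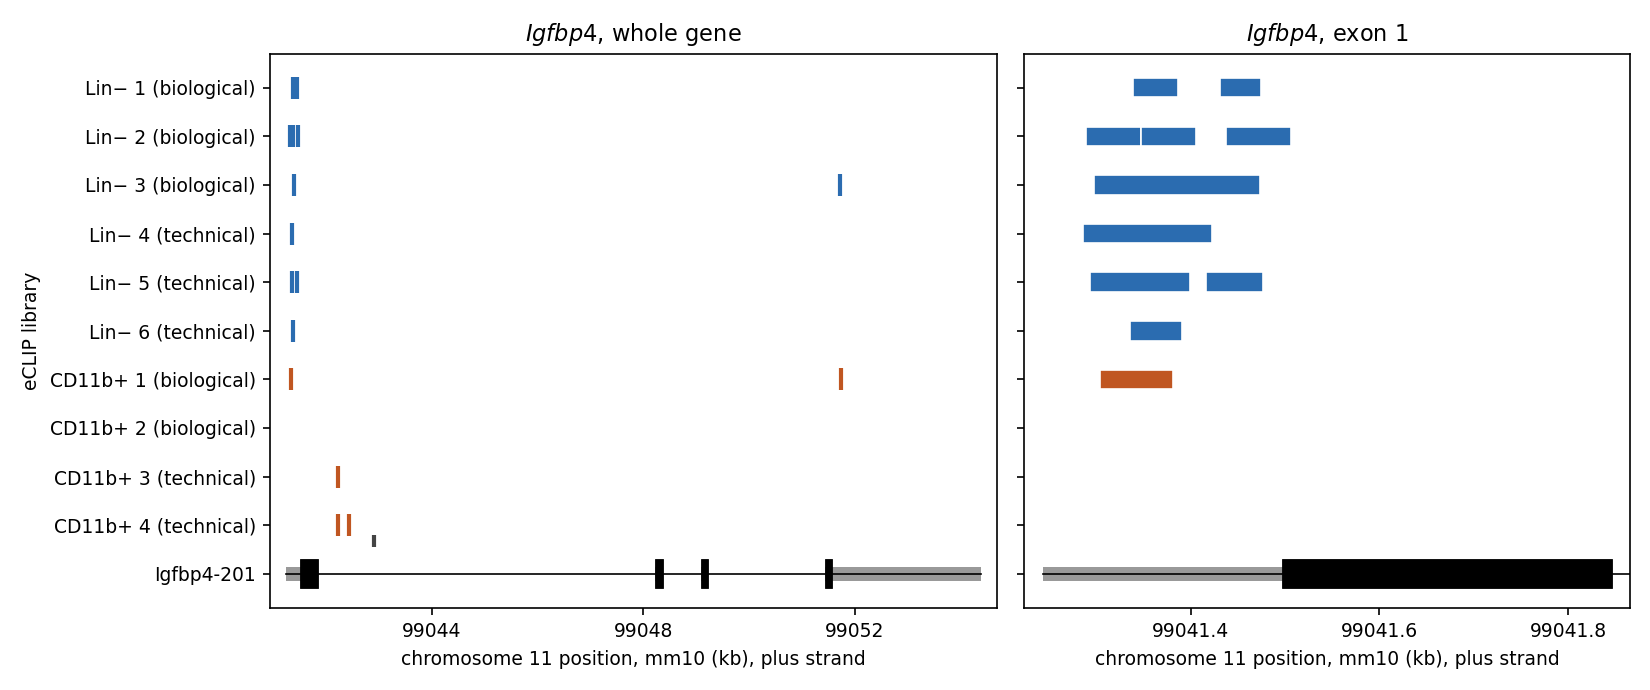
Filtered IGF2BP3 eCLIP peaks on *Igfbp4* along chromosome 11 (mm10, kb), with the whole gene on the left, where colored ticks mark peak centers and the small gray tick an smInput peak, and exon 1 on the right, where boxes span each peak. Black boxes are coding and gray boxes untranslated exon. All 6 Lin− libraries and CD11b+ replicate 1 have a peak in the 5′ UTR.

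*Igfbp7*, whose protein is related to the IGF binding proteins (ENSMUSG00000036256, chr5:77349240-77408041, minus strand), had 106 normalized counts per kb in Lin− cells and 9.80 in CD11b+ cells. Next to *Igf1* it had the highest Lin− over CD11b+ ratio of the 7 genes with a mean of at least 10, 10.8, at percentile 92.2. It had no eCLIP and no smInput peak.

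Most places with a peak on these genes lie in repeats, and the 5′ UTR of *Igfbp4* does not. Over the whole list, 6 merged regions were found in Lin− cells and 14 in CD11b+ cells. By the midpoint of the region, 4 of the 6 and 11 of the 14 were intronic, where the shares over all genes were 77.5% and 83.7%. In CD11b+ cells, 13 of the 14 regions were more than 50% masked as repeat in the RefSeq genome, against 56.8% of all 17735 regions, and 9 held an unbroken run of at least 12 nt of CA, GT or GA, against 35.0%. In Lin− cells, 3 of 6 regions were masked, against 23.4% of all 20608, and 3 held such a run, against 10.7%. The 6-mers ACACAC or CACACA, searched on the RNA strand only, stood in 6 of 14 CD11b+ regions (all genes 17.0%) and in 1 of 6 Lin− regions (8.35%). The regions are few, and no test was made of these shares. Within a cell type, 4 of the 6 and 8 of the 14 regions had a peak in 1 library only, where the shares over all genes were 61.9% and 57.2%. These numbers leave out libraries of the other cell type. Merged over both, 3 of 17 regions had peaks in each cell type. The 5′ UTR region of *Igfbp4* had no masked base, a GC content of 72.7% and no 6-mer. It resembles 5′ UTR regions of Lin− cells in general, whose median GC content was 70.8% and of which 10.7% were masked over 50% and 0.680% held the 6-mer. The runs of repeat units were longest on *Insr*, with 46 nt of CA in the 3′ UTR region and 45 nt in intron 4.

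Windows of 30 nt around the summit of a peak show both kinds of sequence. Each is given 5′ to 3′ on the RNA strand, from the RefSeq GRCm38 (mm10) genome, and capitals mark the 4 nt summit or, where the window holds one of at least 12 nt, the longest dinucleotide run.
*Igfbp4* 5′ UTR, Lin− replicate 2, chr11:99041360-99041389, plus strand: tctgcctgccggggTCGCcccgtgtccctg
*Igfbp4* 5′ UTR, CD11b+ replicate 1, chr11:99041337-99041366, plus strand: ttgctaacttccccGGCTccgtctctgcct
*Igfbp4* intron 1, CD11b+ replicate 4, chr11:99042218-99042247, plus strand: GTGTGTGTGTGTGTGTGTacatgcacatgt
*Insr* 3′ UTR, CD11b+ replicate 3, chr8:3154543-3154572, minus strand: ACACACACACACACACACACACACACACAC
*Insr* intron 4, Lin− replicate 3, chr8:3203096-3203125, minus strand: CACACACACACACACACACACACACACACA
*Insr* intron 7, Lin− replicate 1, chr8:3192817-3192846, minus strand: ttacacagtggtAACCcacctctccctctt
*Igf1r* intron 2, CD11b+ replicate 2, chr7:68045577-68045606, plus strand: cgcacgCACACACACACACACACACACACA

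Beyond the list, 45 further genes of IGF and insulin signaling were followed, of which 37 had a row in both tables. Of the 37, 18 had a filtered peak in any library and 13 in at least 3 of the 10 libraries, where the shares of all 23620 genes in both tables were 37.9% and 21.8%. All 13 wider genes with a mean of at least 1000 in both tables had a peak, and 12 of them had peaks in at least 3 libraries. Among all 3827 genes at that level, the shares were 90.9% and 73.5%. *Pik3r1*, a regulatory subunit of PI3K, had 17 peaks over the Lin− and 25 over the CD11b+ libraries, and *Sos2*, an exchange factor for RAS, had 15 and 25, with peaks in each of the 10. *Grb2*, the adaptor that binds SOS proteins, had 11 and 8. *Sos1* had 9 and 2, *Pik3ca*, the catalytic subunit of PI3K, 6 and 2, and *Shc1* 3 and 4. The SH2B adaptors *Sh2b1*, *Sh2b2* and *Sh2b3* had 8, 2 and 12 peaks in Lin− cells and 2, 14 and 15 in CD11b+ cells. Among phosphatases, *Ptpn1*, which acts on the insulin receptor, had 3 and 14 peaks, and *Ptpn11* had 4 and 0. *M6pr*, the other mannose 6-phosphate receptor, had 6 and 2. *Igf2bp3* itself had 7 and 8 peaks, with a mean of 2041 normalized counts in Lin− cells and 1355 in CD11b+ cells over both genotypes. Of the other genes, 5 had a peak in 1 or 2 libraries and 19 had none. Per 1000 peaks, the biological Lin− values all lay above both CD11b+ values for 2 genes (*Pik3ca*, *M6pr*) and below them for 2 (*Ptpn1*, *Sh2b2*) of the 15 with a peak in a biological library, where the shares over all 9290 genes were 9.34% and 10.6%. None had an adjusted p below 0.05 by the exact permutation test, which cannot reach it here.

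By Euclidean distance of the filtered peak counts over the 10 eCLIP libraries, the genes most like *Insr*, the gene with the highest total, were *Ksr1* (distance 2.0, 15 peaks), *Ccdc88c* (2.24, 18 peaks) and *Taf3* (2.24, 12 peaks).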

How the data were processed

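The submitters' processing notes name STAR 2.5.3a, Bowtie2, DESeq2 and the mm10 build for the stranded RNA-seq. The values used are the signal the authors deposited as the mean normalized count of each gene over all libraries of a cell type, both genotypes. The tables also hold the authors' fold change, standard error, statistic, p, adjusted p and eCLIP marks, which were not used, so WT/MLL-Af4 and I3KO/MLL-Af4 cells are not compared. For eCLIP, the authors called peaks per library with CLIPper, and per the file headers the deposited lists hold peaks before and after removal of those overlapping smInput peaks. The value of each deposited peak, at most 0.05, was read as the CLIPper p-value.

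Peaks with 1 gene ID that overlapped by at least 1 nt on 1 strand were merged within a cell type. Regions were located by midpoint in the GENCODE M21 basic set, with coding exon before UTR before intron, and exon lengths came from the same set. Peaks per 1000 library peaks were compared over biological replicates by the two-sided exact permutation test, adjusted over all genes by Benjamini–Hochberg. Technical libraries are not independent, and the labels do not tie them to biological ones. Where nothing says that replicates came from separate mice or cultures, p-values measure only the spread between these libraries. Members and gene lists were chosen with earlier results of these data known. All members were named, along with the wider genes with a peak in at least 3 libraries and the 3 genes nearest to the member with most peaks; *Airn*, *Gm49368* and the positions of single peaks were added after their values were seen. Alternatives numbered 22, and 9 more were chosen after seeing the data. Python 3.11.15, pandas 2.3.3, NumPy 2.4.6, SciPy 1.17.1, pysam 0.24.0 and matplotlib 3.10.9 were used, and merging, location and tests were checked on simulated data.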

Additional observations from a re-analysis of the deposited data

Results flagged for a closer look

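In groups of 4 to 6 libraries, 4 of 16 tested groups of values had 1 library apart from the rest. Chance alone marks about 1 in 20 groups of continuous values, but that rate does not apply here, since each of the 4 rests on a single peak in 1 library with 0 in all others and such a group always stands out. Per 1000 filtered peaks, *Igf1r* stood at 0.115 in Lin− replicate 3. Per 1000 smInput peaks, *Igf2r* stood at 0.601 in CD11b+ replicate 1, *Irs1* at 0.553 in Lin− replicate 1 and *Igfbp4* at 0.546 in CD11b+ replicate 4. What set these libraries apart was not tested.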

How the results depend on the processing

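Over 131 values recomputed under other settings, 23 of them with settings chosen after seeing the data, 2 changed sign. The *Insr* difference in peaks per 1000 was 0.00933 with a CLIPper p below 0.001, and the *Igf1r* difference was 0.0384 without CD11b+ replicate 2. Leaving out each biological replicate, the differences ranged from -0.513 to -0.0337 for *Insr*, from -0.161 to 0.0384 for *Igf1r* and from 0.0322 to 0.267 for *Igfbp4*. The exact permutation test could not pass at these numbers of libraries under any setting with biological replicates only. With technical libraries counted as independent, the unadjusted p of *Insr* was 0.019, which overstates the evidence. The number of CD11b+ genes of the list with a peak fell from 3 to 1 (*Insr*) when at least 2 biological libraries were required, and that of Lin− genes from 3 to 2. Of all genes in the tables, 10.2% in CD11b+ and 13.7% in Lin− cells met that requirement, against 25.6% and 26.5% with a peak in any library. With technical libraries left out as well as 1 biological replicate, it ranged from 2 to 2 in CD11b+ and from 2 to 3 in Lin− cells. With technical libraries kept, chosen after seeing the data, it ranged from 3 to 3 and from 2 to 3. Merged regions numbered 3 in Lin− and 7 in CD11b+ cells at a CLIPper p below 0.001, from 6 and 14. Biological libraries alone held 5 and 11, and without 1 of these they ranged from 3 to 5 and from 3 to 8, the lowest Lin− number without replicate 3 and the lowest CD11b+ number without replicate 2. With technical libraries kept, chosen after seeing the data, leaving out 1 biological replicate gave from 4 to 6 and from 9 to 12. Removing peaks that overlap an smInput peak of any library, chosen after seeing the data, left 13 of 14 CD11b+ regions. Percentiles of level rose when all genes of a table were used in place of those with a mean of at least 10. In Lin− cells they became 52.7 for *Igf1*, 82.3 for *Igf1r*, 46.5 for *Igf2r*, 78.0 for *Insr*, 59.6 for *Irs2* and 59.7 for *Igfbp7*. In CD11b+ cells they became 18.98 for *Igf1*, 41.8 for *Igf2r*, 71.4 for *Insr*, 56.6 for *Irs2* and 40.3 for *Igfbp7*. The others moved by less than 10. By any exon overlap, 2 Lin− regions count as coding exon, the 5′ UTR region of *Igfbp4* and the *Insr* region at chr8:3192517-3192546, otherwise intronic. The cell types share replicate numbers 1 and 2, which name no shared animal. With the replicate number as a block, the differences were -0.289 for *Insr*, -0.0995 for *Igf1r* and 0.168 for *Igfbp4*, and with 2 pairs no test was made. The deviations of replicates 1 correlated at -0.181 and those of replicates 2 at -0.0984 across 9290 genes, which are not independent. With 2 CD11b+ libraries, the deviations of one are the negative of the other's. Lin− replicate 1 against CD11b+ replicate 2 thus gave 0.181, and Lin− replicate 2 against CD11b+ replicate 1 gave 0.0984. These correlations say little about pairing. The causes of the changes were not tested.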
